A study of Mus musculus with 2 samples.

Results

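The 44 genes described here encode enzymes and scaffolds of base excision repair (17 genes), nucleotide excision repair (12), mismatch repair (5) and non-homologous end joining (9), together with Mgmt, which reverses alkylation of guanine directly. They were chosen by name from the 34745 genes of the deposited tables, and every name was found on 1 row. RNA came from bone marrow (BM) LSKs, the sorted lineage-negative, Sca1-positive and c-Kit-positive fraction that holds hematopoietic stem and progenitor cells, of Scl/tTA-BA mice on the C57BL/6 background. In these mice the Scl-driven tet-off activator switches on BCR/ABL (BA) when doxycycline is withdrawn, and mice of both time points carry both transgenes. The week-0 library came from mice kept on doxycycline, and the week-3 library from mice without it for 3 weeks. Each time point is 1 library made from the mixed LSKs of 3 mice, so the spread between mice is unknown, and BA expression cannot be told apart from the absence of doxycycline or from a difference between the libraries. The ages of the mice are not given in the sources used here.

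Base excision repair removes single damaged bases. A glycosylase cuts out the base, an endonuclease opens the strand, and a polymerase and a ligase fill and seal the gap. Nucleotide excision repair cuts out a short stretch around bulky lesions, such as those made by ultraviolet light, either anywhere in the genome or where a lesion stalls RNA polymerase. Mismatch repair corrects replication errors, and end joining rejoins double-strand breaks without a template and is needed for V(D)J recombination in lymphoid progenitors. Several of these genes, among them Pcna and Lig1, also serve replication and are high in dividing cells.

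Reads counted on genes numbered 6356164 for week-0 and 3886695 for week-3, of which the members took 0.151% and 0.171%. At this depth, 3 reads correspond to 0.472 reads per 1000000 at week-0 and 0.772 at week-3. The sorting markers Kit (FPKM 16.9 and 11.5 at week-0 and week-3) and Ly6a (19.8 and 14.8) were present in both libraries. FPKM is the number of reads scaled by gene length and by the reads of the library. The marker lists of other cells differed between the libraries. The summed FPKM of 6 mast cell genes went from 55.8 to 1750 and that of 6 granulocyte genes from 1500 to 7530, and all 12 were called higher by the rule given next. The sum of 6 B lineage and plasma cell genes went from 295 to 33.9 (3 of the 5 that passed the filter called lower), that of 5 erythroid genes from 770 to 59.1 (4 of 5 lower). A list of 4 stem and progenitor genes summed to 255 and 105, of which the gate markers Kit and Ly6a were not called, whereas Cd34 (FPKM 60.9 and 39.9) and Flt3 (157 and 38.9), which were not used for sorting, were called lower. Of the 5 lineage genes, Cd3e was listed at 0 at week-3, and none of the 3 with enough reads was called. Some genes stand on more than 1 of these lists, and Mpo, Elane, Prtn3 and Cpa3 are also expressed by normal myeloid progenitors. The part of these lists in the values below was not tested.

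A gene was called higher at week-3 when its FPKM ratio of week-3 over week-0 was at least 1.5 and the 95% counting interval of the ratio lay above 1, and lower when the ratio was at most 0.67 and the interval lay below 1. The interval is the exact Clopper-Pearson interval of the fraction that week-3 reads make up among the reads of a gene. It holds counting error alone and takes each read as independent. Amplified cDNA can yield several reads per molecule, so the interval may be too narrow even for that error. No p-value is given because there are no replicates. In bulk RNA, fewer cells of a type and less RNA per cell cannot be told apart. Genes with at least 10 reads over both libraries were compared, which left 43 of the 44 members. Only Lig4, with 1 read at week-0 and 5 at week-3, fell under this limit. Of the 43 members, 7 were called higher, or 16.3%, where 20.4% of all 13689 genes compared were. Another 5 were called lower, or 11.6%, against 21.2% of all genes. The remaining 31 were called in neither direction. The shares of called members were thus below the background in both directions, a difference that was not tested. The interval left out a ratio of 1 for 19 members (44.2%) and for 59.0% of all genes, so an interval of this kind on its own does not set a gene apart. The median log2 change of the members was 0.16, beside 0.07 for all genes, and their middle 50% lay between -0.10 and 0.43, beside -0.60 and 0.58 for all genes.

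**Figure D1:**
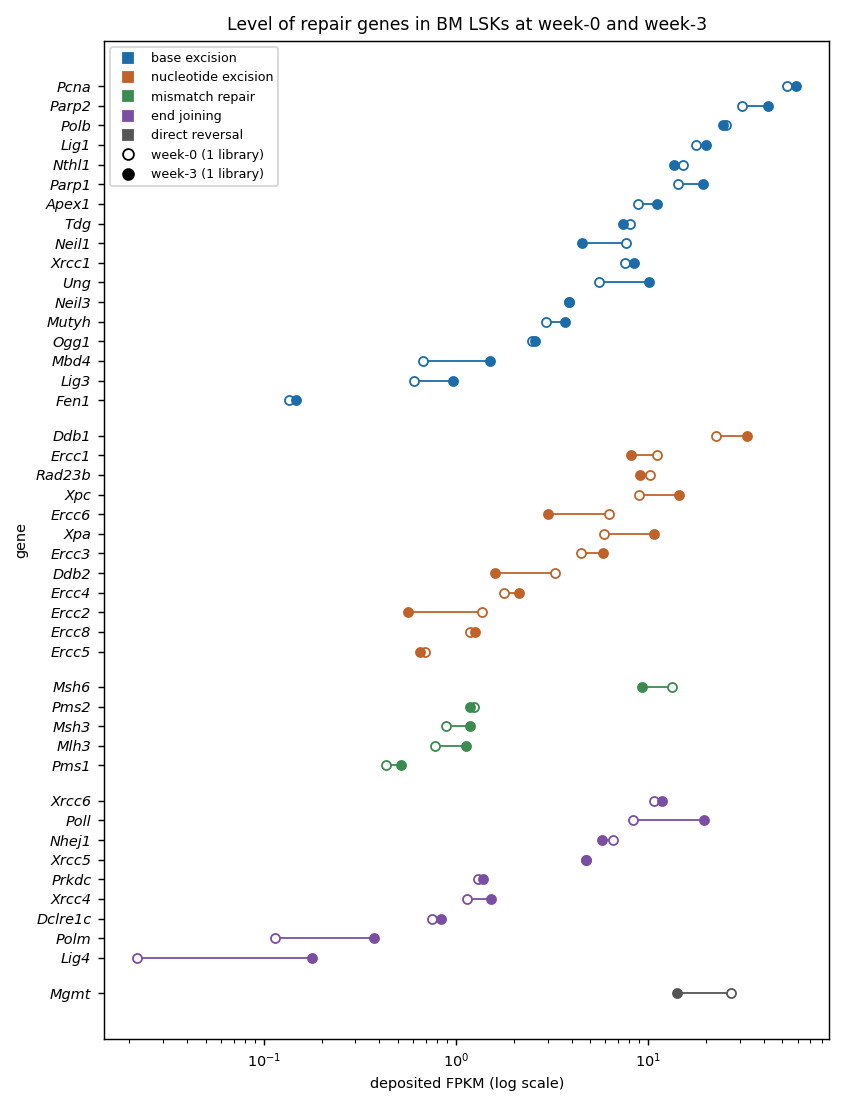
Deposited FPKM (log scale) of the 44 repair genes at week-0 (open circles) and week-3 (filled circles), 1 library each, grouped by pathway and ordered by the week-0 level. Pcna had the highest FPKM at both time points (52.9 and 59.2), and Lig4 the lowest at week-0 (0.0219).

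FPKM at week-0 ran from 0.0219 for Lig4, which rested on 1 read, to 52.9 for Pcna. The lowest of the 43 compared members at week-0 was Polm (0.115). At week-3, FPKM ran from 0.147 for Fen1 to 59.2 for Pcna. At week-0, 12 members had an FPKM of at least 10, 22 lay between 1 and 10, and 10 were under 1. Pcna, the sliding clamp of replication and repair, had 1181 reads (FPKM 52.9) at week-0 and 808 (FPKM 59.2) at week-3. Parp2 (FPKM 30.7 and 42.2), Mgmt (27.1 and 14.2), Polb (25.6 and 24.7) and Ddb1 (22.6 and 32.8) followed it at week-0. The order among these depends on the gene length used. The length implied by the deposited FPKM was above the merged exon length in GENCODE M21 for 33 members, and the ratio of the 2 lengths ran from 0.28 for Mgmt to 2.89 for Fen1. Counted per kilobase of merged exons, Pcna was still highest at week-0 (77.4 reads per kilobase per 1000000 reads), and Lig1 (26.6), Parp1 (19.9), Ercc1 (16.8) and Xrcc6 (15.8) came next, with Mgmt at 7.67. The change of a gene between the libraries does not depend on this length.

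Among the 8 glycosylases, 2 were called higher, 1 was called lower and 5 were called in neither direction. The shares of all genes compared were 20.4% higher and 21.2% lower, and 8 genes are too few to set against them. Ung (ENSMUSG00000029591, chromosome 5 of GRCm38, plus strand, from 114130386 to 114139323), which removes uracil from DNA, had 309 reads (FPKM 5.59) at week-0 and 340 (FPKM 10.1) at week-3. The week-3 library therefore held more Ung reads although it was the smaller library, and the log2 change was 0.85 (95% interval 0.62 to 1.07). Mbd4 (ENSMUSG00000030322, chromosome 6, minus strand, from 115840697 to 115853371), which removes thymine or uracil opposite guanine at CpG sites, had 42 reads (FPKM 0.676) and 57 (FPKM 1.5) in the same order, a log2 change of 1.15 (interval 0.55 to 1.76). Neil1 (ENSMUSG00000032298, chromosome 9, minus strand, from 57142800 to 57148305), a glycosylase for oxidised bases, went the other way. It had 130 reads (FPKM 7.64) at week-0 and 47 (FPKM 4.52) at week-3, a log2 change of -0.76 (interval -1.27 to -0.27). Tdg, which acts on thymine mispaired with guanine and on oxidised 5-methylcytosine, had 501 and 284 reads and a log2 change of -0.11 (interval -0.32 to 0.10). For Ogg1 and Mutyh, which deal with oxidised guanine and the adenine placed opposite to it, the log2 changes were 0.05 (interval -0.44 to 0.54) and 0.34 (interval -0.13 to 0.81). Neil3 and Nthl1 also remove oxidised bases. Neil3 had an FPKM of 3.86 and then 3.90, and Nthl1 15.2 and then 13.6. The log2 changes of the glycosylases thus ran from -0.76 to 1.15, and their summed FPKM was 46.3 at week-0 and 47.3 at week-3.

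The later steps of base excision repair spread over a narrower range. Of 9 genes, Lig3 was called higher (11.1%) and none was called lower, beside 20.4% and 21.2% of all genes compared. Of the 9 log2 changes, 8 were above 0. Lig3, a ligase for single-strand breaks, had 63 reads (FPKM 0.603) at week-0 and 62 (FPKM 0.971) at week-3 (log2 change 0.69, interval 0.16 to 1.22). It was no longer called with limits of 2 and 0.5 or with edgeR at any assumed variation tried. Of its 7284 exon bases, 1826 also lie in exons of Rffl on the opposite strand, and it is not stated whether the counting used strand, so reads of the overlap cannot be told apart. Parp1 and Parp2, the sensors of DNA breaks that build poly(ADP-ribose) chains, had log2 changes of 0.44 (interval 0.28 to 0.61) and 0.46 (interval 0.23 to 0.69), both under the limit of 1.5 times. Pcna (0.16, interval 0.03 to 0.29) and Lig1, the ligase of replication (721 and 499 reads, 0.18, interval 0.01 to 0.35), had narrow intervals just above 0. Both intervals held the median of all genes compared (0.07). Xrcc1, the scaffold that holds Lig3 at breaks, had 463 and 317 reads and a log2 change of 0.16 (interval -0.05 to 0.37). Apex1, the endonuclease that opens the strand, had 140 and 108 reads (0.34, interval -0.04 to 0.71), and Polb, which fills the gap, had 200 and 118 reads (-0.05, interval -0.39 to 0.28). Fen1, the nuclease that trims flaps, had only 6 and 4 reads. Exons of other genes cover 2039 of its 2422 exon bases, 1909 of them those of Gm10143 on the opposite strand, which had 18 and 11 reads. The level of Fen1 is therefore uncertain, and a change was not detectable from so few reads (interval -2.14 to 2.20).

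**Figure D2:**
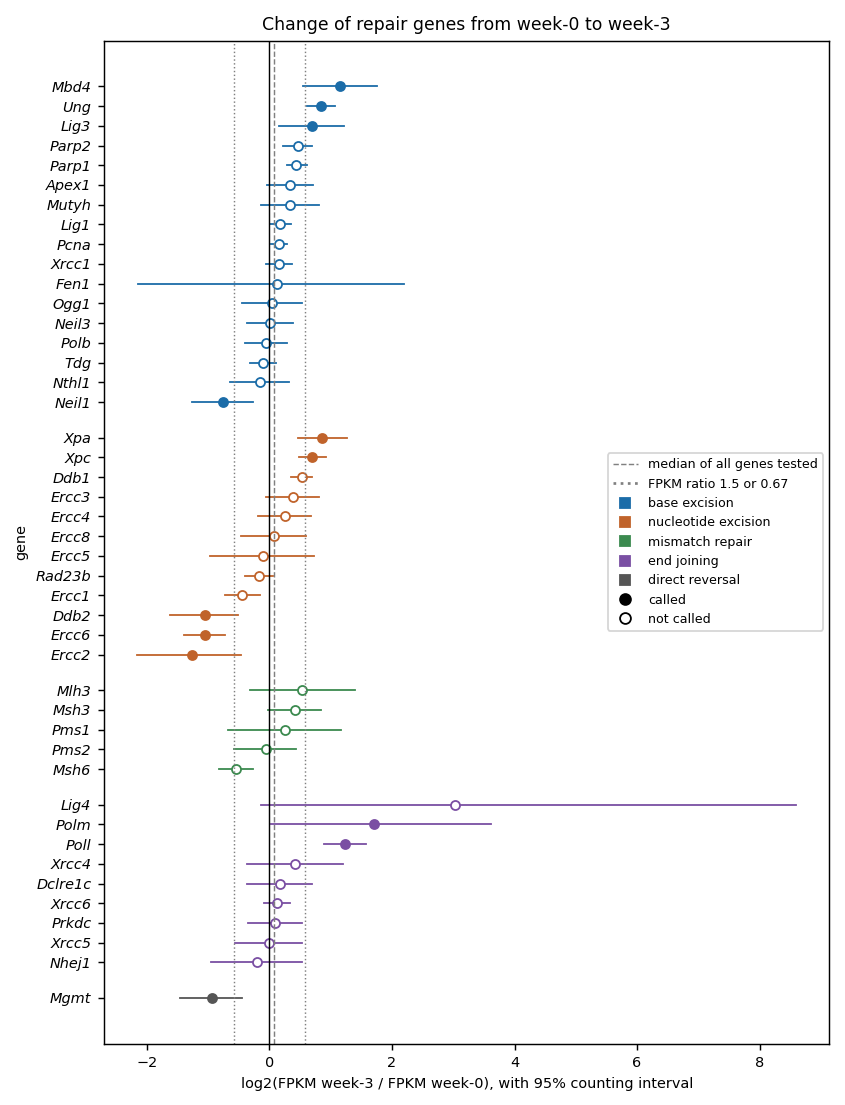
Log2 change in FPKM from week-0 to week-3 for each of the 44 genes, with the 95% counting interval as a line; filled circles are called genes, dotted lines the limits of 1.5 and 0.67, and the dashed line the median of all genes compared (0.07). Nucleotide excision repair holds 2 genes called higher and 3 called lower of 12, and none of the 5 mismatch repair genes was called. Of all genes compared, 20.4% were called higher and 21.2% lower.

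Nucleotide excision repair had calls in both directions, with 2 of its 12 genes higher and 3 lower. With 20.4% and 21.2% of all genes called higher and lower, these counts are near the background. The median log2 change was -0.01. Xpc (ENSMUSG00000030094, chromosome 6, minus strand, from 91489305 to 91515888), which recognises distorted DNA anywhere in the genome, had 349 reads (FPKM 8.94) at week-0 and 347 (FPKM 14.5) at week-3. Its log2 change was 0.70 (interval 0.48 to 0.92). Xpa (ENSMUSG00000028329, chromosome 4, minus strand, from 46155347 to 46196311), which verifies the lesion, had 99 reads (FPKM 5.93) and 110 (FPKM 10.8), a log2 change of 0.86 (interval 0.46 to 1.27).

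The 3 genes called lower were Ddb2, Ercc6 and Ercc2. Ddb2 (ENSMUSG00000002109, chromosome 2, minus strand, from 91211572 to 91236982), the subunit that binds ultraviolet damage, had 125 reads (FPKM 3.29) at week-0 and 37 (FPKM 1.59) at week-3. The log2 change was -1.05 (interval -1.62 to -0.51), and 23.8% of its exon bases lie in exons of Acp2 on the opposite strand, whose reads numbered 59 and 71. Ercc6 (ENSMUSG00000054051, chromosome 14, plus strand, from 32513521 to 32580989), the CSB protein that starts repair at stalled RNA polymerase, had 335 reads (FPKM 6.26) at week-0 and 99 (FPKM 3.02) at week-3. Its log2 change was also -1.05 but better determined (interval -1.39 to -0.72). Ercc2 (ENSMUSG00000030400, chromosome 7, plus strand, from 19382010 to 19395694), a helicase of the transcription factor TFIIH, had 63 reads (FPKM 1.36) and 16 (FPKM 0.565). This was the lowest log2 change of all members, -1.27 (interval -2.16 to -0.46). Exons of other genes, mainly Gm26852 and Klc3 on the opposite strand, cover 42.7% of its exon bases. With the members left out whose exons are covered by at least 10% (6 of 44, a choice made after seeing the data), Ercc6 was the only nucleotide excision gene called lower.

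The other 7 genes of nucleotide excision repair were called in neither direction. Ddb1, the partner of Ddb2 and an adaptor of ubiquitin ligases, had 598 and 529 reads, a ratio of 1.447 just under the limit, and a log2 change of 0.53 (interval 0.36 to 0.70). Ercc1, the non-catalytic subunit of the nuclease formed with Ercc4, had 332 and 149 reads and a log2 change of -0.45 (interval -0.73 to -0.16), with a ratio of 0.734. For Ercc3, the other TFIIH helicase, the log2 change was 0.38 (interval -0.05 to 0.81), and for Rad23b, which stabilises Xpc, it was -0.17 (interval -0.40 to 0.06). Ercc4, Ercc5 (the second nuclease) and Ercc8 (CSA, which acts with CSB) had log2 changes of 0.26, -0.10 and 0.07, each with an interval that held 0.

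Mismatch repair had no call in either direction among its 5 genes. Of all genes compared, 20.4% were called higher and 21.2% lower, and 5 genes are too few to set against these shares. Msh6, which recognises single-base mismatches, had the highest FPKM of the 5 at week-0 (13.4, from 363 reads) and 9.25 at week-3 (from 153 reads). Its log2 change was -0.54 (interval -0.82 to -0.26), and its ratio of 0.689 lay just outside the limit of 0.67. With TMM or median-of-ratios scaling, which lowered every log2 change by 0.08 and 0.07, Msh6 was called lower. Msh3, the alternative subunit that recognises larger loops, had 102 and 83 reads and a log2 change of 0.41 (interval -0.02 to 0.84). Pms2, the endonuclease subunit, was at -0.06 (interval -0.57 to 0.43), and the MutL relatives Pms1 and Mlh3, each with under 30 reads per library, were at 0.26 (interval -0.68 to 1.17) and 0.54 (interval -0.32 to 1.39). The median of the 5 genes was 0.26, which rested on Pms1 with its 26 and 19 reads.

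End joining had 2 genes called higher and none called lower of the 8 with enough reads. Of all genes compared, 20.4% were called higher and 21.2% lower. The count called higher is near this background, and 8 genes are too few to set against these shares. Both genes called higher encode polymerases that fill gaps at the ends. Poll (ENSMUSG00000025218, chromosome 19, minus strand, from 45552275 to 45560531), DNA polymerase lambda, had 123 reads (FPKM 8.33) at week-0 and 176 (FPKM 19.5) at week-3. Its log2 change of 1.23 (interval 0.89 to 1.57) came with the highest lower bound of any member. Polm, DNA polymerase mu, rested on 5 and 10 reads (FPKM 0.115 and 0.376, log2 change 1.71, interval 0.03 to 3.61). It was no longer called with TMM or median-of-ratios scaling, with at least 50 reads or with edgeR at any assumed variation tried. None of the core factors was called. Xrcc6 (Ku70), which with Xrcc5 (Ku80) forms the ring that binds broken ends, had 449 and 300 reads and a log2 change of 0.13 (interval -0.09 to 0.34), and Xrcc5 had an FPKM of 4.74 and 4.73 (interval -0.56 to 0.54). Prkdc, the DNA-dependent kinase recruited by Ku, was at 0.09 (interval -0.35 to 0.53), and Dclre1c (Artemis), the nuclease that opens hairpins, at 0.17 (interval -0.36 to 0.69). Xrcc4 and Nhej1, which support ligation, were at 0.42 (interval -0.37 to 1.20) and -0.20 (interval -0.96 to 0.53). For Lig4, the ligase itself, 1 read at week-0 and 5 at week-3 allow a log2 change anywhere from -0.13 to 8.60.

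Mgmt (ENSMUSG00000054612, chromosome 7, plus strand, from 136894611 to 137128187), which takes alkyl groups off guanine and is used up by the reaction, had 141 reads (FPKM 27.1) at week-0 and 45 (FPKM 14.2) at week-3. It was called lower, with a log2 change of -0.94 (interval -1.46 to -0.44). No exon base of Mgmt is shared with another gene.

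The pathways overlapped widely in their changes. The median log2 change was 0.16 for base excision, -0.01 for nucleotide excision, 0.26 for mismatch repair and 0.15 for end joining, all within the middle 50% of all genes. Base excision had 3 genes called higher and 1 lower of 17 (17.6% and 5.88%), and nucleotide excision 2 higher and 3 lower of 12. Of all genes compared, 20.4% were called higher and 21.2% lower. With 5 to 17 genes per pathway, 1 gene moves these shares by several percentage points, and no difference between pathways was tested. As a description, the middle 50% of nucleotide excision genes (-0.60 to 0.42) was wider than that of base excision genes (0.01 to 0.44). It was no wider than that of all genes compared (-0.60 to 0.58).

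**Figure D3:**
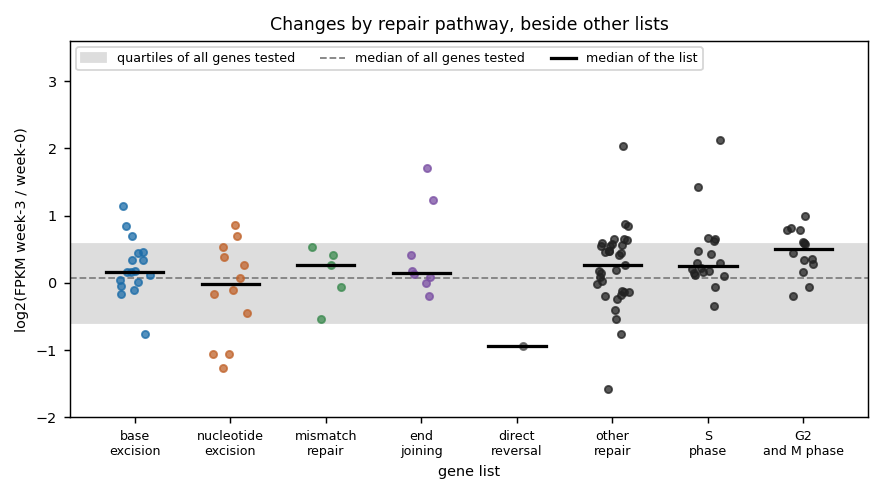
Log2 change of each gene with at least 10 reads, by repair pathway and for 3 further lists (other repair genes, S phase genes, G2 and M phase genes); black bars are list medians, the dashed line is the median of all genes compared (0.07) and the grey band their middle 50% (-0.60 to 0.58). The 4 pathway medians, from -0.01 to 0.26, lie inside the band.

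Genes that work as partners were then compared within the libraries. The difference between the log2 changes of a pair does not depend on how the libraries are scaled. The 10 pairs were chosen after the values had been seen, and the intervals are normal approximations of counting error. The interval left out 0 for 6 pairs, which supports no statement about partners in general, since the pairs were picked with their values known and a counting interval also left out no change for 59.0% of all genes. Ddb2 was 1.58 lower than Ddb1 on the log2 scale (difference -1.58, interval -2.13 to -1.02), and Ercc2 differed from Ercc3 by -1.65 (interval -2.55 to -0.76). Ercc6 differed from Ercc8 by -1.12 (interval -1.72 to -0.52) and Ercc1 from Ercc4 by -0.70 (interval -1.20 to -0.20), whereas Xpc was above Rad23b by 0.87 (interval 0.56 to 1.18). Msh6 differed from Msh3 by -0.95 (interval -1.45 to -0.45). The other 4 pairs gave intervals that held 0. That of Parp1 and Parp2 was the narrowest (-0.01, interval -0.29 to 0.26), and the Ku pair of Xrcc5 and Xrcc6 had -0.13 (interval -0.69 to 0.43). Lig3 and Xrcc1 differed by 0.52 (interval -0.02 to 1.07), and for Poll and Polm the interval from -2.07 to 1.10 leaves large differences possible.

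**Figure D4:**
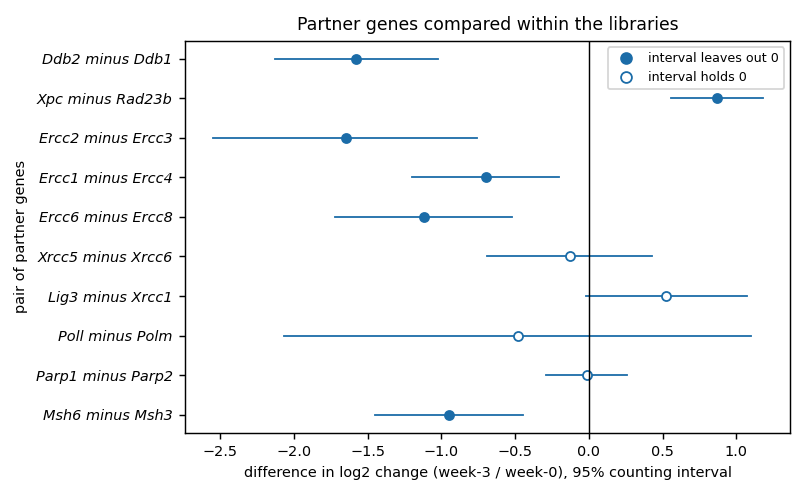
Difference in log2 change (week-3 over week-0) between partner genes, first named gene minus second, with 95% counting intervals; filled circles mark intervals that leave out 0. The pairs were chosen after their values were seen, 6 of 10 have filled circles, and the interval of Parp1 minus Parp2 (-0.29 to 0.26) is the narrowest.

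Other genes of the same pathways were followed as a list of 35, of which 34 were found by symbol and 33 had enough reads. Of these, 7 were called higher (21.2%) and 2 lower (6.06%), with a median log2 change of 0.26. Of all genes compared, 20.4% were called higher and 21.2% lower. Among those called higher were Smug1, another uracil glycosylase (10 and 25 reads, log2 change 2.03), Uvssa, which acts with Ercc6 at stalled polymerase (0.84), the end joining scaffold Aplf (0.65), the single-strand binding subunit Rpa2 (0.65), and the TFIIH subunits Gtf2h4 (0.64) and Gtf2h5 (0.59). The endonuclease Apex2 (119 and 43 reads, -0.76) and Dntt were called lower. Dntt, the template-independent polymerase of V(D)J joining and a marker of early lymphoid cells, had 1589 reads (FPKM 117) and 325 (FPKM 39.3) (log2 change -1.58, interval -1.76 to -1.41). The clamp loader genes Rfc1 to Rfc5 lay between 0.09 and 0.58.

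Since Pcna, Lig1 and other members also serve replication, cell cycle lists were set beside them. Of 18 S phase genes, 5 were called higher (27.8%) and none lower, with a median log2 change of 0.25. Rrm2 (2.12) and Cdc6 (1.43) were the highest, and the 6 Mcm genes lay between 0.12 and 0.48, around the values of Pcna and Lig1. Of 14 G2 and M phase genes, 6 were called higher (42.9%) and none lower, with a median of 0.51. Among all genes compared, 20.4% were called higher and 21.2% lower, and the differences from these shares were not tested. Whether cell cycle bears on the members was not tested.

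Promoter sequence was described for the 38 of 44 members matched in the promoter table used here (RefSeq, GRCm38.p6), in a window of 300 bases (250 before the start of the gene and 50 after). Polb, Prkdc, Ddb2, Xpc, Ercc3 and Poll were not matched. Strings of the type bound by E2F factors (TTCCCGC or TTGGCGC, either strand) were found in 10 of the 38 (26.3%), beside 6.81% of all 32851 promoters of the table. The CCAAT string was found in 57.9% of members and 37.4% of all promoters, and the GC-box string GGGCGG in 71.1% and 35.7%. The members' promoters also had a higher median GC content (60.0%, beside 52.7%). These sets are unlike. Each member has 1 promoter, the one nearest its deposited start, whereas the promoters of the table were not limited to 1 per gene or to expressed genes. Whether these shares are particular to the members was not tested. Among the members, a GC box was present in 4 of 5 promoters of genes called higher, in 3 of 4 of those called lower and in 20 of 29 of the rest. CCAAT was present in 3, 1 and 18 of these, and an E2F-type string in 1, 1 and 8, numbers too small to compare. A match describes letters and not a bound site. The 100 bases before the RefSeq or the deposited start, whichever lies further upstream, are given for 2 called higher and 2 called lower, chosen after seeing the data to set glycosylase genes beside genes called lower, 5′ to 3′ on the gene's strand, with the matched strings in capitals. They lie at chr6:115853372-115853471 (minus strand) for Mbd4, chr5:114130286-114130385 for Ung, chr7:19381910-19382009 for Ercc2 and chr7:136894486-136894585 for Mgmt (plus strand for these 3).
Mbd4: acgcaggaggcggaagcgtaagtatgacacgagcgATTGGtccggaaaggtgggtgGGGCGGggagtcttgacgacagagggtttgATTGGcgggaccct
Ung: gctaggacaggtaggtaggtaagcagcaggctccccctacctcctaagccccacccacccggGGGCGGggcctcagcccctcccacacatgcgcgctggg
Ercc2: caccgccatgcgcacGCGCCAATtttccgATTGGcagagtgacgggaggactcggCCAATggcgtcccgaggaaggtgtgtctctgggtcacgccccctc
Mgmt: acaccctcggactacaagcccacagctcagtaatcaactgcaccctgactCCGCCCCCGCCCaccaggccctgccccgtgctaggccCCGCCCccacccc
Mbd4 shows 2 CCAAT strings read on the other strand and a GC box, and Ung a GC box. Ercc2 shows 3 CCAAT strings, the first of which overlaps an E2F-type string, and Mgmt shows 3 GC boxes on the other strand. The corresponding 100 bases of Lig3 and Xpa, called higher, and of Neil1, called lower, held no match. In the window of 300 bases, Lig3 had a GC box and Xpa a CCAAT string.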

How the data were processed

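Total RNA of BM LSKs was converted to cDNA (SMARTer Ultra Low Input) and sequenced as paired ends. The authors trimmed the reads, mapped them to GRCm38 (mm10) with TopHat2 2.0.9 and deposited, per gene, counts (raw reads) and FPKM scaled by gene length and by the reads counted on genes. The counting tool, its use of strand and the annotation release are not given in the sources used here. The week-0 table sums to 6356164 reads and the week-3 table to 3886695.

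The tables were joined by Ensembl identifier. Calls used the deposited FPKM ratio and an exact 95% Clopper-Pearson interval of the counts for genes with at least 10 reads, without a test, as there is 1 library per time point. Alternatives were edgeR 4.0.16 (exact test, assumed biological coefficient of variation 0.1, 0.2 or 0.4, Benjamini-Hochberg q under 0.05 beside the same fold limits), TMM and DESeq2 1.42.0 size factors, limits of 2 and 0.5, other filters, and pseudocounts of 0.1 and 1. Exon overlap and strand came from GENCODE M21 on GRCm38, where 35 of 44 members had the coordinates of the tables. The call and the edgeR test were tested on simulated data. Every member is named, with reads and FPKM in both libraries for each called gene. Members and lists were chosen with earlier results of these data known. Intervals were computed with scipy 1.17.1 and pandas 2.3.3 in Python 3.11.15, and edgeR and DESeq2 ran in R 4.3.3.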

Additional observations from a re-analysis of the deposited data

How the results depend on the processing

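No paired analysis was possible because each time point has 1 library. The assumed variation moved the calls most. Shares of all genes called were computed for the main rule alone. The counts under the alternatives below therefore have no background beside them. With edgeR's exact test at a biological coefficient of variation of 0.1, 5 members were called higher and 4 lower, with 0 base excision genes lower and 1 end joining gene higher. At 0.2, 1 member was called higher, the end joining gene Poll, and 0 lower, so that base and nucleotide excision had 0 in each direction. At 0.4, 0 members were called in either direction in any pathway. With limits of 2 and 0.5, 3 members were called higher and 3 lower, of which base excision had 1 higher and 0 lower and nucleotide excision 0 higher. TMM and median-of-ratios scaling gave 1 mismatch repair gene lower (Msh6) and 1 end joining gene higher, since Polm was lost, and so did a limit of 50 reads for end joining, which again had 1 higher. Without the members that share at least 10% of their exon bases with other genes (a choice made after seeing the data), 3 members were called lower, 1 of them in nucleotide excision. A pseudocount of 1 on the FPKM scale shrank the changes of genes with low FPKM, by its construction: Polm went from 1.71 to 0.30 on the log2 scale, Mbd4 from 1.15 to 0.58, Lig3 from 0.69 to 0.30 and Ercc2 from -1.27 to -0.59, which puts Polm, Mbd4 and Lig3 under the limit of 1.5 times. These values stayed inside the counting intervals, and no called change turned its sign under the scalings, filters or pseudocounts. The cause of the other differences was not tested, apart from the fewer genes that a stricter filter leaves. Few reads limit what Lig4, Fen1 and Polm can show, and 84.2% of the exon bases of Fen1 are shared with other genes.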

Other observations

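Some members are neighbours in the genome. Ercc1 and Ercc2 lie 25485 bases apart on chromosome 7, and their log2 changes were -0.45 and -1.27. Parp2 and Apex1 lie 103667 bases apart on chromosome 14, with log2 changes of 0.46 and 0.34. Fen1 and Ddb1 lie 401455 bases apart on chromosome 19, with 0.12 and 0.53. These are values only, and nothing about shared control was tested.

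In all, 21 of the 44 members share at least 1 exon base with another gene, on the opposite strand except for Pms2, Parp1 and 11 bases of Ercc2. For Apex1 the shared part was 61.7% of its exon bases, all of it with Pip4p1, which had 80 and 71 reads, beside 140 and 108 for Apex1.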
